A study of Homo sapiens with 4 samples.

Results

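The proteins of the small subunit of the human mitochondrial ribosome were followed through the RNA that encodes them. All genes with an MRPS name and a number (with or without a final A, B or C) were taken, 29 in all, together with DAP3, PTCD3, AURKAIP1 and CHCHD1, so that 33 of the 62700 genes in the deposited count table are described. RNA was measured in 4 libraries of HEK293T, a widely grown cell line of human embryonic kidney origin, after depletion of ribosomal RNA. The cells were, per the labels, a stable clone that expresses a V5-tagged MITO-PRADA construct, a proximity-labelling construct directed to the mitochondrial matrix, from a CMV promoter. The labelled group (2 libraries) received 100 µM s4U (4-thiouridine, a uridine analogue that cells build into new RNA) for 5 h, then 0.5 mM alkyne phenol with s4U for 30 min and, to start the reaction, 10 mM D-amino acid for 30 min. The unlabelled group (2 libraries) received the same s4U and alkyne phenol without D-amino acid. The only contrast in the labels is between these groups, and the design text calls the material labelled and enriched. The labels do not say whether the sequenced RNA is the enriched fraction, nor explain the terms DF and Maxima H in the titles, so a fold change is given as a difference between libraries and not as an enrichment. The titles number biological replicates without stating whether they were separate cultures, so the p-values given here reflect the spread of these libraries, which may be technical.

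The mitochondrial ribosome translates the few mRNAs of the mitochondrial genome, all of which encode subunits of the oxidative phosphorylation system. Its small subunit binds the mRNA and holds the decoding centre. It is built on the 12S rRNA, which the mitochondrial genome encodes as MT-RNR1, whereas all of its proteins are encoded in the nucleus, made on cytosolic ribosomes and imported into the matrix. Some of these proteins descend from the bacterial ribosome and others have no bacterial counterpart. The comparison therefore sets nuclear transcripts, whose protein products work in the matrix, beside an rRNA made in that compartment.

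The labelled libraries held 9380258 and 12287451 assigned fragments, against 8172347 and 5771795 in the unlabelled libraries. Genes of the mitochondrial chromosome took 27.0 and 30.9% of them in labelled libraries, against 9.04 and 10.4% in unlabelled libraries. The 33 genes together received 15930 and 20034 fragments in labelled libraries, against 16793 and 11561 in unlabelled libraries. A count of 3 fragments equals 0.320 and 0.244 counts per 1000000 assigned fragments (CPM) in labelled libraries, against 0.367 and 0.520 CPM in unlabelled libraries. Unlabelled replicate 2 was the shallowest library. From here on, CPM are scaled by the trimmed mean of M values (TMM), unlike the values for 3 fragments. On this scale the median absolute log2 difference between replicates over the 33 genes was 0.0783 for the labelled and 0.159 for the unlabelled pair. All 8 marker genes listed for the HEK293 line were detected well enough to be tested, at very different levels. LIN28B had 132 and 142 CPM in labelled libraries, against 130 and 113 CPM in unlabelled libraries. NEFM had 1.28 and 2.50 CPM in labelled libraries, against 0.445 and 1.21 CPM in unlabelled libraries. Of 10 markers of other cell types, COL1A1 and CD14 were tested and neither was called, and HBB was at 0 in all 4 libraries. These 10 markers summed to 23.7 and 23.5 CPM in labelled libraries, against 22.6 and 15.2 CPM in unlabelled libraries. COL1A1 made up most of this, at 20.5 and 19.8 CPM in labelled libraries, against 19.4 and 11.8 CPM in unlabelled libraries. In each library it was above the HEK293 markers NEFM, LHX1, NEFL, PAX2 and INA. In bulk RNA, fewer cells with a transcript and less of it per cell cannot be told apart. Fold changes are log2, labelled over unlabelled, from edgeR.

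The base composition of these transcripts is relevant because s4U replaces uridine. Across the 33 genes the reference transcript with the longest coding sequence contained 15.2 to 31.4% U, with a median of 25.5%, against a median of 24.3% over 13508 protein-coding genes tested. The opening 120 coding bases are shown for the genes with the lowest and the highest U content of the whole transcript among the 30 whose proteins are placed in the small subunit, AURKAIP1 (chr1:1373730-1375207, minus strand) and MRPS18C (chr4:83455932-83469735, plus strand). MRPS36, the richest in U of all 33, is not among the 30. The stretches are spliced coding sequence of GENCODE 29 on GRCh38, and each T, which is U in the RNA, is in capitals.
AURKAIP1: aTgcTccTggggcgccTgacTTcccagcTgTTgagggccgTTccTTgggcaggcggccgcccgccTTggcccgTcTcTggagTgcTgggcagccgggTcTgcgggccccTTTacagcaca
MRPS18C: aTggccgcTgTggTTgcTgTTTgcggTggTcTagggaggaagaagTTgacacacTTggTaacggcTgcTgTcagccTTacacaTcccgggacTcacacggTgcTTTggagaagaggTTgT
The AURKAIP1 stretch holds 25 T and the MRPS18C stretch 31 T. The whole coding sequence is 14.6% U in AURKAIP1 and 27.0% U in MRPS18C. Across the 33 genes the Spearman rho of fold change with the percentage of U in the transcript was 0.13 (Pearson r 0.19, n = 33 genes that share the same 4 libraries), against a rho of 0.09 over the 13508 coding genes.

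No gene of the small subunit was called higher or lower in labelled libraries. With edgeR's quasi-likelihood test and Benjamini-Hochberg adjustment over 18973 genes, 0 of 33 were higher (0.269% of all genes tested were) and 0 of 33 were lower (0.0158% of all genes tested were), and the smallest adjusted p was 0.303. DESeq2 also gave 0 and 0, against 0.325% higher and 0.061% lower over all genes tested, with a smallest adjusted p of 0.863 and 2 members at an unadjusted p under 0.05. At an unadjusted edgeR p under 0.05 there were 5 members above (MRPS17, MRPS26, MRPS31, MRPS18B and MRPS21; 5.67% of all genes tested) and 3 below (MRPS12, AURKAIP1 and MRPS5; 5.88% of all genes tested). The 33 fold changes spanned -0.41 to 0.55 with standard errors (SE) of 0.12 to 0.42, and the 95% interval included 0 for 25 of the genes. The interval's upper bound was below 1, which is 2-fold, for 32 of the genes, the exception being MRPS24 at 1.08, and the lower bound was above -1 for all 33. On the TMM scale, the interval of nearly every gene, taken singly, thus stayed within a 2-fold difference in either direction. That is a limit on size and does not show equal levels. On library size alone, without TMM, the fold changes themselves ran from -0.77 to 0.19.

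**Figure D1:**
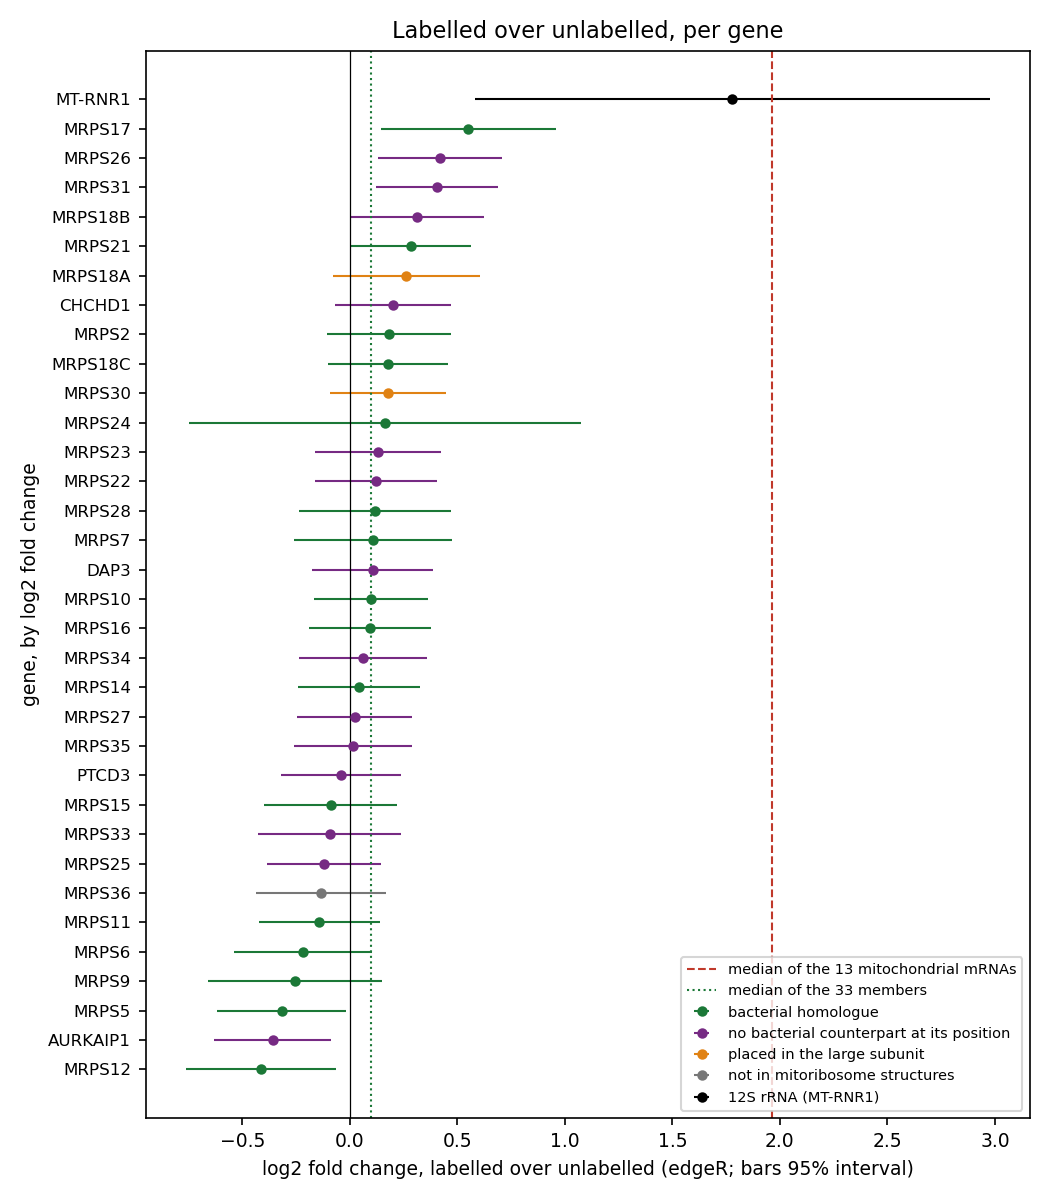
Fold change of each of the 33 genes and of MT-RNR1, log2, labelled over unlabelled (x axis), genes ordered by fold change (y axis). Points are edgeR estimates from 2 labelled and 2 unlabelled libraries and bars are 95% intervals, with colours for the class of protein. The 33 genes lie between -0.41 and 0.55, to the left of the median of the 13 mitochondrial mRNAs at 1.96.

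The direction was mixed. The median fold change was 0.10 over the 33 genes, against -0.01 over all genes tested and 0.02 over the coding genes. There were 22 positive and 11 negative values, so that 66.7% were positive, against 48.0% of all genes tested and 53.9% of the coding genes. Both labelled libraries lay above both unlabelled libraries for 10 genes (22.2% of all genes tested showed this) and below them for 7 (22.4% of all genes tested), and the groups overlapped for 16. The median of the members thus lay 0.11 above that of all genes on the log2 scale, a description with no test.

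**Figure D2:**
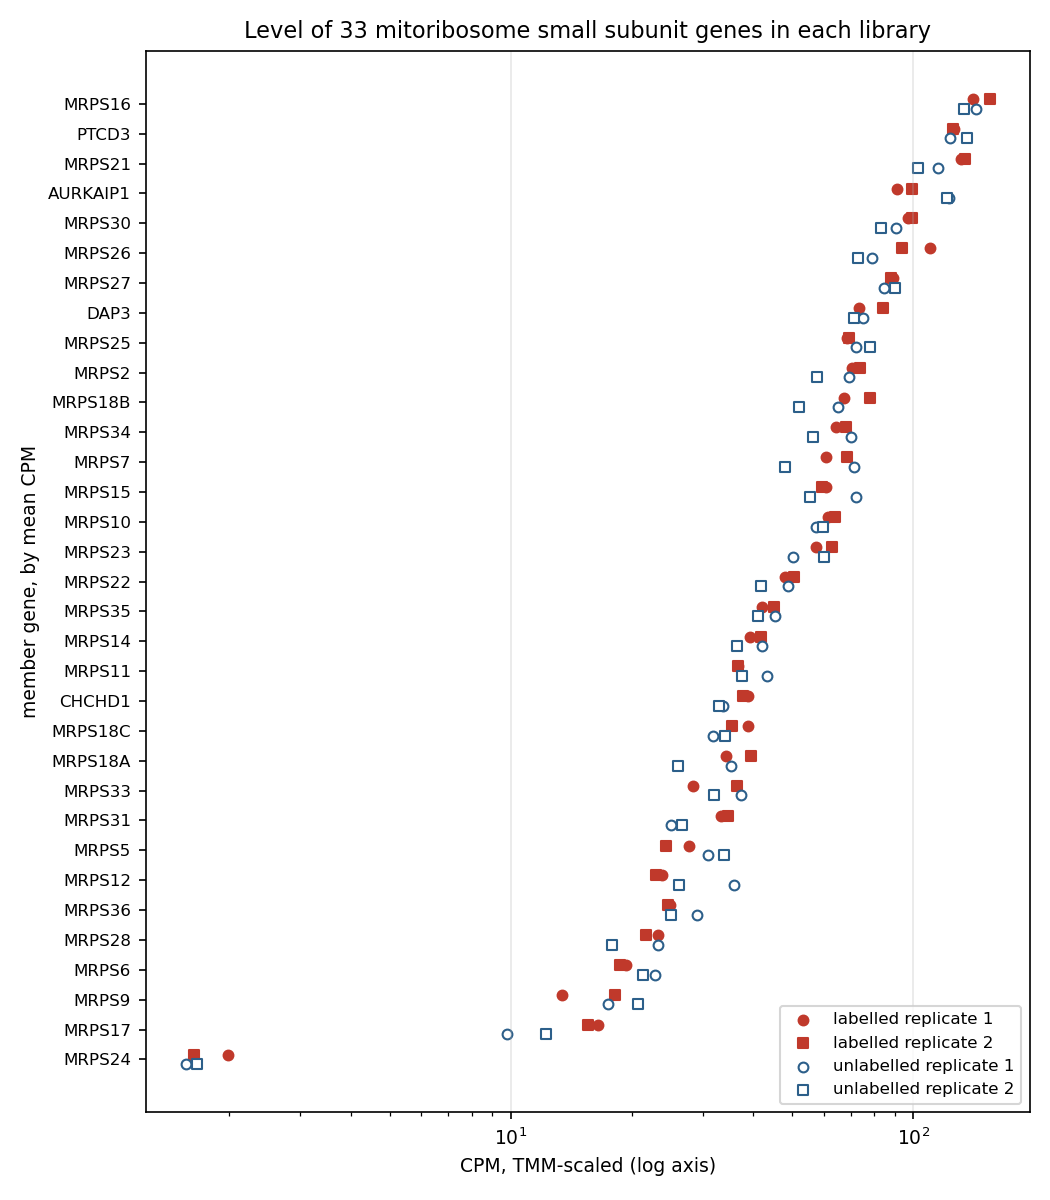
TMM-scaled CPM on a log axis (x) of each of the 33 genes, ordered by mean level (y). Filled symbols are the 2 labelled and open symbols the 2 unlabelled libraries, and for most genes the 4 symbols lie close together, with MRPS24 far below the others.

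Among the homologues of bacterial proteins, 10 of 16 had a positive fold change, with a median of 0.10. MRPS12, the homologue of S12 in the decoding centre, had 23.8 and 23.0 CPM in labelled libraries, against 35.7 and 26.1 CPM in unlabelled libraries. Both labelled libraries were below both unlabelled ones, but the unlabelled replicates differed from each other by more than the gap to the nearest labelled library. Its fold change was -0.41 ± 0.16 (SE), the lowest of the 33, with an adjusted edgeR p of 0.370. Relative to the median of all genes it was -0.40, against -0.12 without unlabelled replicate 1, where MRPS5 was the lowest at -0.35, and -0.61 without unlabelled replicate 2. MRPS5, the homologue of S5 at the mRNA entry, had 27.6 and 24.2 CPM in labelled libraries, against 30.8 and 33.8 CPM in unlabelled libraries. The groups did not overlap, and the fold change was -0.32 ± 0.14 with an adjusted edgeR p of 0.412.

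MRPS17 had the highest fold change of the 33. This homologue of S17 (chr7:55951877-55956500, plus strand, GRCh38) had 16.4 and 15.6 CPM in labelled libraries, against 9.80 and 12.2 CPM in unlabelled libraries. The labelled values lay close together and above both unlabelled ones, which rest on 88 and 81 fragments. The fold change was 0.55 ± 0.19 (95% interval 0.14 to 0.96), with an adjusted edgeR p of 0.316. All 390 of its coding bases also belong to exons of the gene ENSG00000249773. Fragments that lie wholly in shared bases touch more than 1 gene and stay unassigned. The values of MRPS17 thus rest on fragments that reach its other exon bases. MRPS21, the homologue of S21, had 131 and 134 CPM in labelled libraries, against 115 and 103 CPM in unlabelled libraries. It shares no exon base with another gene, the groups did not overlap, and the fold change was 0.29 ± 0.13 with an adjusted edgeR p of 0.426.

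The other 7 homologues in the body had fold changes of both signs. MRPS6, the homologue of S6, had 19.4 and 18.7 CPM in labelled libraries, against 22.8 and 21.3 CPM in unlabelled libraries. MRPS11, the homologue of S11, had 36.6 and 36.6 CPM in labelled libraries, against 43.2 and 37.4 CPM in unlabelled libraries. Neither gene's groups overlapped, and the fold changes were -0.22 ± 0.15 and -0.14 ± 0.13, each with an interval that included 0. MRPS15, the homologue of S15, overlapped between groups at 60.6 and 59.4 CPM in labelled libraries, against 71.8 and 55.4 CPM in unlabelled libraries. MRPS16, the homologue of S16, had 140 and 154 CPM in labelled libraries, against 143 and 133 CPM in unlabelled libraries, the highest mean level of the 33. MRPS2 and MRPS18C, homologues of S2 and S18, each had a fold change of 0.18 with no overlap between groups. MRPS28, the homologue of S1, stood at 0.12 with overlap.

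Among the 5 head proteins of bacterial type, MRPS9 had the fold change furthest from 0. MRPS9, the homologue of S9 whose tail reaches the P site, had 13.4 and 18.2 CPM in labelled libraries, against 17.5 and 20.7 CPM in unlabelled libraries. These values overlapped, and the fold change was -0.26 ± 0.19. Relative to the median of all genes it was -0.24, against -0.0190 without labelled replicate 1 and -0.48 without labelled replicate 2. MRPS7, the homologue of S7 that organises the rRNA of the head, had 60.6 and 68.3 CPM in labelled libraries, against 71.0 and 48.0 CPM in unlabelled libraries, so that both labelled values fell between the unlabelled ones. MRPS10 and MRPS14, homologues of S10 and S14, had fold changes of 0.10 and 0.04. MRPS24, the homologue of S3, was by far the least covered member. It had 17 and 17 fragments in labelled libraries, against 14 and 11 in unlabelled libraries, or 1.98 and 1.64 CPM against 1.56 and 1.66 CPM. Its fold change of 0.16 ± 0.42 (95% interval -0.75 to 1.08) carries little information, and 462 of its 501 coding bases also lie in exons of the readthrough gene URGCP-MRPS24. In each other member the lowest count in any library was 81 or more.

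Proteins without a bacterial counterpart at their position gave a similar picture, with 10 of 14 positive and a median of 0.08. MRPS26 (chr20:3046052-3048250, plus strand), a body protein, had 110 and 93.7 CPM in labelled libraries, against 79.0 and 72.9 CPM in unlabelled libraries. The groups did not overlap, and the gap between them was a little smaller than the difference between the labelled replicates. Its fold change was 0.42 ± 0.13 (95% interval 0.13 to 0.71), and its adjusted edgeR p of 0.303 was the smallest of the 33. MRPS31 (chr13:40729128-40771190, minus strand), a head protein, had 33.3 and 34.6 CPM in labelled libraries, against 24.9 and 26.6 CPM in unlabelled libraries. Replicates agreed closely in both groups, and the fold change was 0.40 ± 0.13 with an adjusted edgeR p of 0.306. MRPS31 has annotated pseudogene copies, of which MRPS31P5 had 4.43 and 2.60 CPM in labelled libraries, against 4.45 and 2.41 CPM in unlabelled libraries, so reads of near-identical stretches make the value of MRPS31 less certain.

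AURKAIP1, a protein that joins the subunit late in its assembly, ran the other way. It had 91.2 and 98.9 CPM in labelled libraries, against 122 and 121 CPM in unlabelled libraries. The groups were separated by more than the spread of either, and the fold change was -0.36 ± 0.12 (95% interval -0.63 to -0.09) with an adjusted edgeR p of 0.328. MRPS18B, a paralogue of the S18 family at a position of its own, had 67.3 and 78.2 CPM in labelled libraries, against 64.8 and 52.1 CPM in unlabelled libraries. The replicates of each group differed by more than the gap between the groups, and the fold change was 0.31 ± 0.14 with an adjusted edgeR p of 0.433. CHCHD1, a twin CX9C protein, had 38.8 and 37.8 CPM in labelled libraries, against 33.7 and 32.9 CPM in unlabelled libraries. Its groups did not overlap either, at a fold change of 0.20 ± 0.12 with an interval that included 0.

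The remaining proteins of this class lay within 0.13 of 0. PTCD3, a pentatricopeptide repeat protein near the mRNA entry, had 126 and 126 CPM in labelled libraries, against 123 and 136 CPM in unlabelled libraries. DAP3, the GTP-binding protein of the head, had 73.1 and 84.1 CPM in labelled libraries, against 75.1 and 71.1 CPM in unlabelled libraries. Both overlapped, at -0.04 ± 0.13 and 0.11 ± 0.13. MRPS27, another pentatricopeptide repeat protein, stood at 0.02 and MRPS35 at 0.01, the values nearest to 0. MRPS22, MRPS23 and MRPS34 were at 0.12, 0.13 and 0.06, and MRPS25 and MRPS33 at -0.12 and -0.09. By position, 7 of 10 head proteins and 13 of 20 body proteins had positive values, with medians of 0.07 and 0.11.

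Of the 33 genes chosen by name, 3 encode proteins that structures do not place in the small subunit. MRPS18A and MRPS30 are found in the large subunit. MRPS18A had 34.3 and 39.5 CPM in labelled libraries, against 35.2 and 26.0 CPM in unlabelled libraries, with overlap and a fold change of 0.26 ± 0.16. MRPS30 had 96.8 and 99.4 CPM in labelled libraries, against 90.4 and 83.1 CPM in unlabelled libraries, without overlap and with a fold change of 0.18 ± 0.12. MRPS36, now named KGD4 and known as a subunit of the 2-oxoglutarate dehydrogenase complex, had 24.8 and 24.5 CPM in labelled libraries, against 28.95 and 25.0 CPM in unlabelled libraries. Its fold change was -0.14 ± 0.14. Over the 30 genes that remain, 20 values were positive and the median was 0.10, as for all 33.

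Single libraries decided whether members passed the threshold. Without unlabelled replicate 1, edgeR called 7 members higher (MRPS18A, MRPS18B, MRPS2, MRPS21, MRPS26, MRPS31 and MRPS7) where 11.6% of all genes tested were called higher, and 1 lower (AURKAIP1) where 7.37% were called lower. Without unlabelled replicate 2 it called 3 higher (MRPS17, MRPS26 and MRPS31) where 2.06% of all genes tested were, and 2 lower (AURKAIP1 and MRPS12) where 2.55% were. Without labelled replicate 1 or 2 few genes of the whole table were called, so the absence of called members there is no result about them. The median fold change of the 33 genes was 0.12 and 0.04 without labelled replicate 1 or 2, and 0.16 and 0.04 without unlabelled replicate 1 or 2. In each of these fits the lone library of a group is assumed to vary like the pair of the other group, and the labelled pair was the tighter one. The fits without unlabelled replicate 1 or 2 share both labelled libraries and are not independent. In them MRPS26 stood at 0.51 and 0.37 relative to the median of all genes. MRPS31 stood at 0.39 and 0.45 and AURKAIP1 at -0.31 and -0.36. Relative to the median of all genes, single left-out libraries moved MRPS18A over 0.08 to 0.55, MRPS18B over 0.18 to 0.52, MRPS5 over -0.37 to -0.20 and MRPS6 over -0.26 to -0.13.

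The scale also mattered. Without TMM, on library size alone, 0 members were higher (0.364% of all genes tested were) and 8 were lower (14.1% of all genes tested were). They were AURKAIP1, MRPS5, MRPS6, MRPS9, MRPS11, MRPS12, MRPS25 and MRPS36. On that scale the median of all genes was -0.37 and that of the 33 genes -0.26, so relative to all genes the members stood at 0.11, as they did with TMM. The larger mitochondrial share of labelled libraries moves with this shift, and its part in it was not tested. With TMM and chromosome M left out of the table, the median of all genes was -0.01 and that of the members 0.10.

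Summed over members, the same dependence appeared in each library. The 33 genes took 2326 and 2360 of each 1000000 fragments of nuclear genes in labelled libraries, against 2259 and 2236 in unlabelled libraries. The groups did not overlap, at 2343 ± 24.0 in labelled and 2248 ± 16.2 in unlabelled libraries (SD, n = 2 each), a ratio of 1.04. The exact permutation test over libraries gave p = 0.33, two-sided, the smallest that its 6 arrangements allow. Per 1000000 of all assigned fragments the order was opposite, with 1698 and 1630 in labelled libraries, against 2055 and 2003 in unlabelled libraries, a ratio of 0.820. Fragments were amplified without molecular identifiers, so they are not independent molecules.

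**Figure D3:**
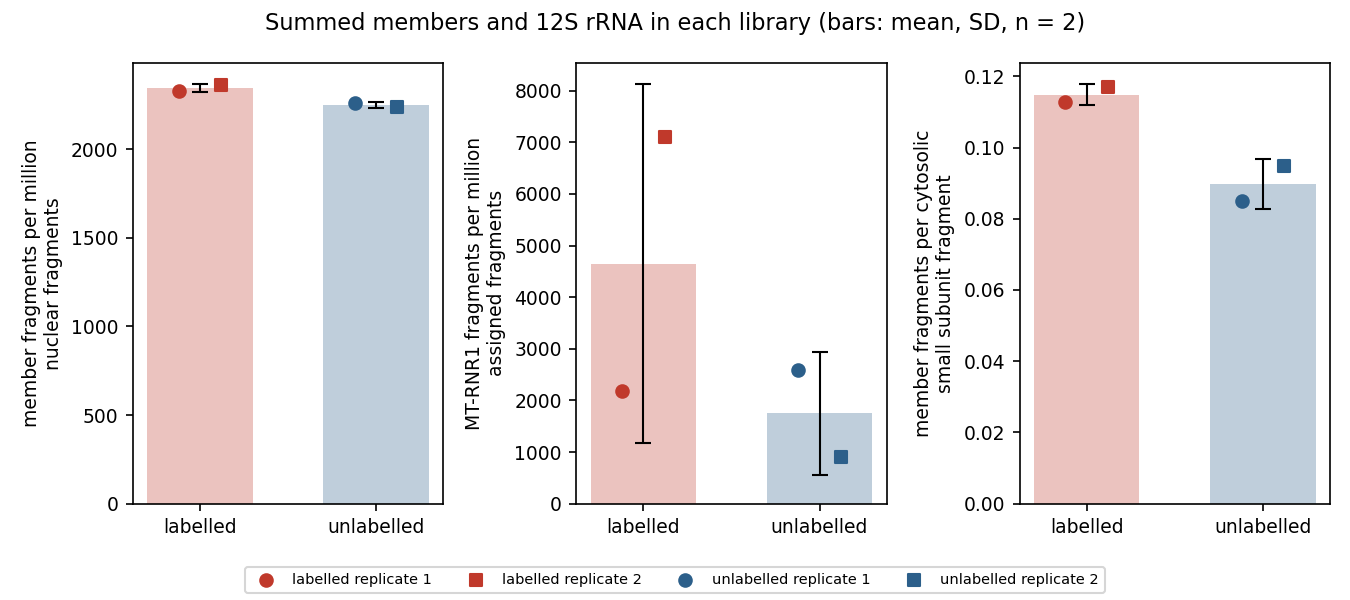
Member fragments per 1000000 nuclear fragments, MT-RNR1 fragments per 1000000 assigned fragments, and member fragments per cytosolic small subunit fragment (y axes) in labelled and unlabelled libraries (x axis). Bars are means, error bars SD (n = 2) and points single libraries. The member share lies between 2236 and 2360 in all 4 libraries, whereas MT-RNR1 lies between 908 and 7111 and overlaps between groups.

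The 12S rRNA of the same subunit had a larger fold change than any of the 33 genes, with a wide spread between replicates. MT-RNR1 (chrM:648-1601, GRCh38) had 2392 and 8405 CPM in labelled libraries, against 2357 and 791 CPM in unlabelled libraries. Labelled replicate 1 and unlabelled replicate 1 were nearly equal, and the difference came from the second replicate of each group. The fold change was 1.78 ± 0.55 (95% interval 0.58 to 2.97), with an unadjusted p of 0.00715 and an adjusted edgeR p of 0.303, so it was not called. With no filter on low counts and all 4 libraries it was called, at 1.80. With 1 library left out the fold change was 2.43, 2.80 and 1.20 without labelled replicate 1, unlabelled replicate 1 or unlabelled replicate 2, each past the threshold, and 0.61 without labelled replicate 2, which was not. Per 1000000 assigned fragments MT-RNR1 had 2187 and 7111 in labelled libraries, against 2590 and 908 in unlabelled libraries, which overlap (exact permutation p = 0.667, two-sided). Ribosomal RNA was depleted before sequencing, and how evenly this acted on the 12S rRNA in the 4 libraries was not tested.

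For each MT-RNR1 fragment there were 0.777 and 0.229 member fragments in labelled libraries, against 0.793 and 2.21 in unlabelled libraries. Both labelled ratios were below both unlabelled ones, but the first replicates of each group were almost the same. On the log2 scale the difference between the means, labelled minus unlabelled, was -1.65, with an SD of 1.24 in labelled and 1.04 in unlabelled libraries (exact permutation p = 0.33, two-sided, the smallest possible). The difference was -2.53 and -0.77 without labelled replicate 1 or 2, and -2.39 and -0.91 without unlabelled replicate 1 or 2. The member share of nuclear fragments stayed between 2236 and 2360 per 1000000 in the 4 libraries, so most of the variation in the ratio lay in MT-RNR1.

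Related gene groups give the context. As background for their counts, edgeR called 0.269% of all genes tested higher and 0.0158% lower. At an unadjusted edgeR p under 0.05, 5.67% of all genes tested were higher and 5.88% lower. The 13 mitochondrial mRNAs, which this ribosome translates, had a median fold change of 1.96, with 13 of 13 positive, 4 called higher by edgeR and 0 lower. MT-ND1, a subunit of complex I, had 13808 and 17107 CPM in labelled libraries, against 2658 and 3111 CPM in unlabelled libraries. Its groups were far apart, with a fold change of 2.42 ± 0.34 and an adjusted edgeR p of 0.00725. MT-CYB, which encodes cytochrome b, followed at 2.11 ± 0.36 with an adjusted edgeR p of 0.0289, and MT-ND6, another complex I subunit, at 2.01 ± 0.33 with 0.0248. The counts ignore strand, so MT-ND6 cannot be told apart from RNA of the opposite strand. None of the 33 intervals of the small subunit genes reached above 1.08.

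Genes of proteins that act on the small subunit, or beside it, also gave no call. Of 15 genes listed as assembly factors, a list that also holds LRPPRC and SLIRP, 0 were called in either direction. At an unadjusted edgeR p under 0.05, 1 was higher, and the median was -0.01. NOA1, a GTPase of small subunit assembly, had 40.0 and 38.0 CPM in labelled libraries, against 33.2 and 30.0 CPM in unlabelled libraries, a fold change of 0.30 ± 0.13. LRPPRC and SLIRP, partners that stabilise mitochondrial mRNAs, stood at -0.28 ± 0.14 and -0.27 ± 0.14. Of 15 mitochondrial translation factors, 0 were called, 3 were higher and 0 lower at an unadjusted p under 0.05, and the median was 0.16. They were MTRFR, a ribosome rescue factor, at 0.37 ± 0.13, GFM2, a ribosome recycling factor, at 0.39 ± 0.14, and MTFMT, which formylates the initiator tRNA, at 0.44 ± 0.17.

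The large subunit of the same ribosome had 48 of 49 genes tested, of which 0 were called. At an unadjusted p under 0.05 there were 2 higher and 6 lower, and the median was 0.06. MRPL52 had 30.3 and 28.8 CPM in labelled libraries, against 45.9 and 45.0 CPM in unlabelled libraries, a fold change of -0.62 ± 0.12 with an adjusted edgeR p of 0.0862. MRPL9 stood at 0.76 ± 0.20 and MRPL55 at -0.42 ± 0.13. The fragments of the 33 genes were divided by those of the large subunit. The ratio came to 0.747 and 0.745 in labelled libraries, against 0.712 and 0.768 in unlabelled libraries. Both labelled ratios lay between the unlabelled ones (exact permutation p = 1, two-sided), so this ratio showed no separation at this depth. The 33 genes include MRPS18A, MRPS30 and MRPS36, so the ratio is not strictly that of the 2 subunits.

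Values of the cytosolic small subunit lay mostly below 0. Of 33 genes tested of 34, 0 were called and 0 were higher and 13 lower at an unadjusted edgeR p under 0.05, 1 value was positive, and the median was -0.30. RPS19 had 467 and 435 CPM in labelled libraries, against 759 and 684 CPM in unlabelled libraries, a fold change of -0.68 ± 0.16, and RPS29 and RPS21 stood at -0.77 ± 0.18 and -0.74 ± 0.17. For each fragment of the cytosolic small subunit there were 0.113 and 0.117 member fragments in labelled libraries, against 0.0849 and 0.0948 in unlabelled libraries. The groups did not overlap, at a ratio of 1.28 (exact permutation p = 0.33, two-sided, the smallest possible). The table also lists 47 pseudogenes of the members, of which 21 had a fragment. Only MRPS31P4 and MRPS31P5 were covered well enough to be tested, and edgeR called neither. All pseudogenes together received 81 and 84 fragments in labelled libraries, against 103 and 71 in unlabelled libraries, so little of the signal was assigned to them.

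Length and abundance were then set against the fold changes. Length is the number of exon bases of a gene over all its annotated transcripts, and ran from 1016 in MRPS26 to 19524 in MRPS27, with a median of 2594, against 4280 over all genes tested. Across the 33 genes, fold change and Length had a Spearman rho of -0.24 and a Pearson r of -0.25, against a rho of 0.08 over all genes tested and -0.10 over the coding genes. In single pairs of a labelled and an unlabelled library rho ran from -0.40 to -0.02, lowest against unlabelled replicate 2. It was -0.38 without unlabelled replicate 1 and -0.09 without unlabelled replicate 2. Split by Length into sets of 11, the median fold changes were 0.12, 0.10 and 0.02, in order of increasing Length. Against the length of the reference transcript instead, fold change had a rho of -0.09 and an r of -0.07 over the 33 genes. With abundance (mean log2 CPM), rho was 0.10, against 0.24 over all genes, and the medians of the sets of 11 were -0.09, 0.10 and 0.11, in order of increasing level. These are descriptions over genes that share 4 libraries.

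**Figure D4:**
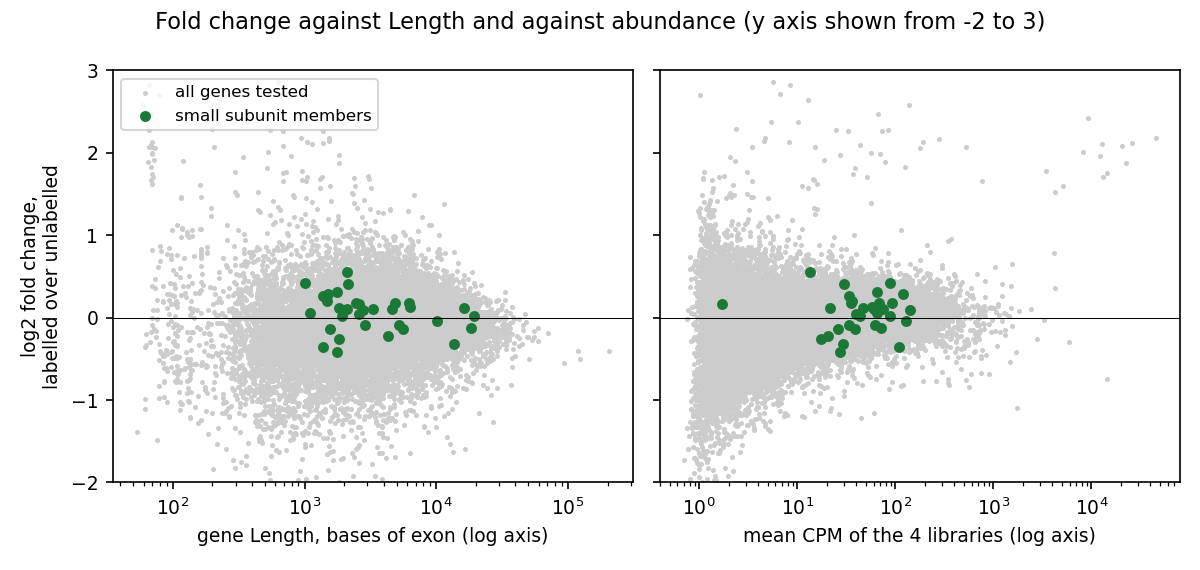
Fold change (y axis, log2, shown from -2 to 3) against gene Length in bases (left, log axis) and against mean CPM of the 4 libraries (right, log axis). Grey points are all genes tested and green points the 33 genes, which lie within the grey cloud near 0 over their whole range of Length and level.

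Per kilobase of Length the members covered a 133-fold range, from 0.656 to 87.4 CPM per kb on average. MRPS26, MRPS21 and AURKAIP1 led. MRPS26 had 108 and 92.2 CPM per kb in labelled libraries, against 77.7 and 71.7 in unlabelled libraries. MRPS21 had 87.5 and 89.6 CPM per kb in labelled libraries, against 76.6 and 68.6 in unlabelled libraries. AURKAIP1 had 66.0 and 71.6 CPM per kb in labelled libraries, against 88.6 and 87.8 in unlabelled libraries. MRPS26 was above MRPS21 in each library. AURKAIP1 was below both in the labelled and above both in the unlabelled libraries, so the order of the 3 differed between the groups. MRPS34 came next with 58.8 and 62.1 CPM per kb in labelled libraries, against 63.9 and 51.7 in unlabelled libraries. MRPS16 had 50.2 and 55.3 CPM per kb in labelled libraries, against 51.1 and 47.7 in unlabelled libraries. It lay below MRPS34 in each library. MRPS18B followed with 38.3 and 44.5 CPM per kb in labelled libraries, against 36.9 and 29.6 in unlabelled libraries, below all values of MRPS16.

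Levels per kb had a Spearman rho of -0.74 with Length across the 33 genes, against -0.06 over all genes tested, and Length is itself the divisor of this level. Length counts all annotated exons, and for several members it far exceeds 1 spliced transcript. MRPS27 has a Length of 19524 but a reference transcript of 1369 bases, and MRPS22 has 16385 against 1120. Divided by transcript length instead, MRPS27 moved to rank 4 of 33 and MRPS22 to rank 13, AURKAIP1 led with 136 CPM per kb, and rho with transcript length was -0.18. The orders by Length and by transcript length had a rho of 0.69. Levels between members therefore depend on the length used as the divisor, which cancels in fold changes between groups.

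Shared exons set another limit on levels. Of the 33 genes, 18 share exon bases with another gene (48.6% of all genes tested do), and for 14 these include coding bases. The counting assigned no fragment that lies wholly in exon bases shared with another gene. The share of coding bases was 100% in MRPS17, 95.5% in MRPS5, 92.2% in MRPS24, 74.2% in MRPS25 and 62.0% in MRPS28, the 5 members above 50%. The partner genes themselves received few fragments in several cases, 7 in all 4 libraries for ENSG00000249773 beside MRPS17 and 4 for URGCP-MRPS24 beside MRPS24. Median fold changes differed little by this property, at 0.11 over the 14 genes with shared coding bases and 0.09 over the 19 without. Single genes spread widely, from -0.32 to 0.55 over the 5 above 50% and from -0.41 to 0.42 over the 19 without. Of the fragments assigned or left ambiguous, 9.24 and 9.02% were ambiguous in labelled libraries, against 11.3 and 12.8% in unlabelled libraries, and the part of this difference in the fold changes of genes with shared exons was not tested.

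**Figure D5:**
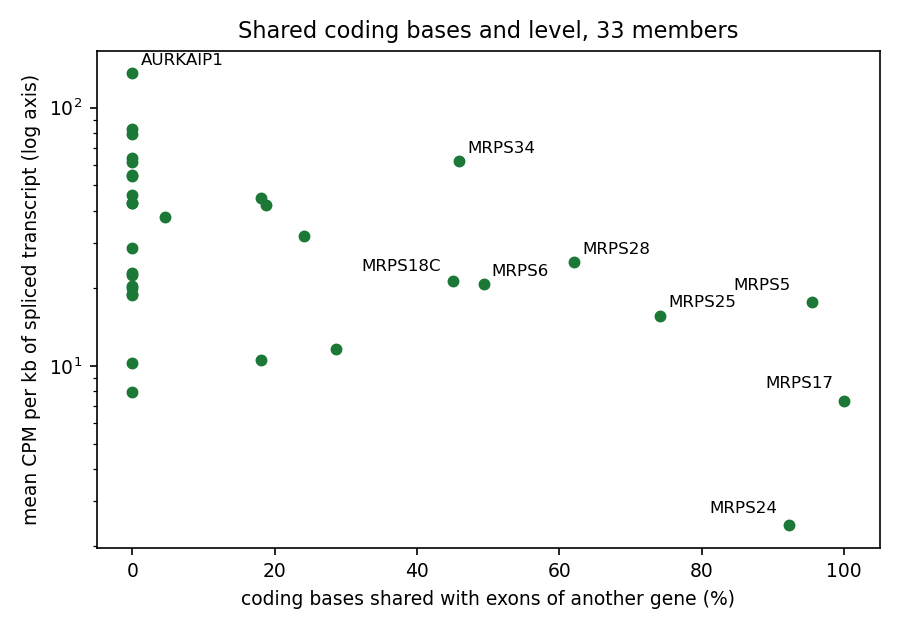
Mean CPM per kb of spliced transcript (y axis, log) against the percentage of coding bases that also lie in exons of another gene (x axis) for the 33 genes. MRPS17 (100%) and MRPS24 (92.2%) lie at the low end of the levels, and AURKAIP1, which shares none, is the highest. MRPS33 and MRPS23 also share none but are low, at 7.90 and 10.2 CPM per kb. MRPS5 (95.5%) and MRPS28 (62.0%) are higher, at 17.6 and 25.2.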

How the data were processed

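The authors deposited whole-number counts of fragments per gene for 62700 genes, not normalized. Per the file headers these counts came from featureCounts 1.6.4 on GENCODE 44, over exons summed by gene, for read pairs with both ends mapped and without chimeric pairs. The recorded command sets neither strand nor multi-mapping nor overlap, so antisense RNA is not separated and fragments wholly in shared exon bases are lost. Per the submitters' processing notes, the aligner was STAR 2.7.9a, the build GRCh38, and DESeq2 1.42.0 is also named. Whether duplicates were removed is not given here. Xenograft material was not analysed here.

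All 62700 identifiers matched a symbol. The 4 libraries entered 1 edgeR 4.0.16 fit in R 4.3.3 (filterByExpr, TMM, glmQLFit and glmQLFTest) with no block, and p-values were adjusted over 18973 genes at a threshold of 0.05. Each SE was taken as the fold change over the root of its F statistic. DESeq2 1.42.0, other scalings, other filters, thinning to 5771795 fragments, removal of a length trend and left-out libraries were alternatives. For sums per library, an exact permutation test (two-sided) was run in Python 3.11.15. The edgeR script was tested on simulated data, where 63 of 94 genes with a 2-fold and 95 of 98 with a 4-fold difference passed the threshold. Coding and spliced lengths come from GENCODE 29 on GRCh38, with the transcript of the longest coding sequence for each gene. The members, gene lists and alternatives were chosen with earlier results of these data known. All 33 members are named, with values per library for those with an unadjusted p under 0.05, the 6 highest and 6 lowest fold changes and the 6 highest levels per kb, and the 3 genes of smallest p in each related list. Some further members' values are given as well.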

Additional observations from a re-analysis of the deposited data

How the results depend on the processing

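No alternative scaling, filter or tool other than library size alone put any of the 33 genes past the threshold. In those settings few genes of the whole table passed it. On library size alone 8 genes were called lower, where 14.1% of all genes tested were, and the median of the members was -0.26, against 0.10 with TMM, and on that scale the median of all genes was -0.37. Leaving out 1 library gave 0 to 7 genes called higher and 0 to 2 called lower. The 7 came without unlabelled replicate 1, where 11.6% of all genes tested were called higher, and the 2 without unlabelled replicate 2, where 2.55% were called lower. MT-RNR1 passed the threshold with no filter on low counts (1.80) and with the replicate number as a block (1.71), and ran from 0.61 to 2.80 with 1 library left out. The member share of fragments fell to a ratio of 0.820 over all assigned fragments. The rho of fold change with abundance was 0.0137 after thinning to the lowest total and 0.0398 to 0.2112 with 1 library left out.

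Signs of small fold changes, and some sizes, were not stable. Relative to the median of all genes, PTCD3 stood at 0.0072 with no filter, 0.0080 with DESeq2 and 0.0484 after thinning, MRPS33 at 0.0905 and MRPS36 at 0.0001 after thinning. With 1 library left out the range was -0.0756 to 0.0374 for PTCD3, -0.26 to 0.12 for MRPS33, -0.48 to -0.0190 for MRPS9, -0.61 to -0.12 for MRPS12, -0.22 to 0.0139 for MRPS36, -0.23 to 0.0049 for MRPS11, -0.0443 to 0.19 for MRPS14, -0.25 to 0.15 for MRPS15, -0.0435 to 0.37 for MRPS28, -0.0726 to 0.26 for MRPS34, -0.0433 to 0.13 for MRPS35 and -0.13 to 0.47 for MRPS7. The cause was not tested.

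The replicate numbers do not pair the libraries by a label, and the deviations of the first replicates of each group had a correlation of -0.07 over genes. With the replicate block 0 members were called, the median was 0.10, and edgeR called 140 genes higher and 96 lower over the whole table, against 51 and 3 without it. Depth limits MRPS24 in particular, with 11 to 17 fragments per library.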
